A study of Mus musculus with 32 samples.

Results

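The genes described here are 10 genes of T lymphocytes, chosen by symbol from the 35275 genes of a count table from mouse lung: Cd3d, Cd3e, Cd3g, Cd4, Cd8a, Cd8b1, Cd28, Lck, Cd5 and Foxp3. All 10 were present in the table, and all 10 passed the filter on low counts in both experiments. T cells recognise peptides on other cells through a receptor whose signal is carried into the cell by the CD3 chains. The coreceptors CD4 and CD8 bind the MHC molecule that holds the peptide and bring the kinase LCK to the receptor, CD28 adds a second signal, CD5 dampens the response, and FOXP3 is the transcription factor that defines regulatory T cells. In lungs with chronic smoke exposure, T cells of the CD8 lineage are known as one of the populations that accompany emphysema.

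Poly(A) RNA of lung tissue from C57B/6 mice was sequenced in 32 libraries of 8 groups. In the first experiment, without surgery, the groups were males in air (n = 3), females in air (n = 3), males in smoke (n = 5) and females in smoke (n = 5), each for 5 months. The second experiment had no air group: its females all breathed smoke after ovariectomy or a sham operation, for 3 months (3 libraries of each) or 5 months (5 libraries of each). The labels give no age, smoke dose or hour of collection. Nor do they state that the libraries of a group came from separate animals, so p-values measure the spread between libraries, which may be technical. Library titles were numbered group by group, with air apart from smoke and each group of the second experiment in its own series. The labels do not say whether these series were handled separately, so handling cannot be told apart from smoke, surgery or time. The libraries held 13790052 to 24497332 counts. Levels are given in CPM (counts per megacount of the library, with the library totals scaled by TMM) when libraries are compared, and in TPM (the same kind of share after division by gene length) when genes are compared. In bulk tissue, fewer T cells and less RNA per T cell cannot be told apart.

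The 3 CD3 genes lie together on chromosome 9 of GRCm38. Cd3g spans 44969572 to 44980431 on the minus strand, Cd3d spans 44981793 to 44987052 on the plus strand, and Cd3e spans 44998743 to 45009590 on the minus strand. Cd3g and Cd3d are therefore arranged head to head, 1361 bases apart, and the whole cluster covers 40019 bases. The coreceptor genes of CD8 are neighbours too, on the plus strand of chromosome 6, with Cd8b1 at 71322836 to 71337477 and Cd8a at 71373427 to 71379171, separated by 35949 bases. Cd4 is on the same chromosome at 124864692 to 124888221, minus strand. The other genes are Cd28 (chromosome 1, 60716800 to 60773359), Lck (chromosome 4, 129548344 to 129573641), Cd5 (chromosome 19, 10718143 to 10738974) and Foxp3 (chromosome X, 7579676 to 7595243).

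The 250 bases before the RefSeq start site (GRCm38.p6) are shown for the CD3 cluster, because its genes are neighbours that encode one complex, and for Cd8a, the only one of the 10 genes that was called higher in smoke over both sexes. Each runs 5′ to 3′ on the strand of its gene, and capitals mark a match on either strand to a motif of factors active in T cells: TGTGGT (RUNX), CTTTGA (TCF1 and LEF1), AGGAAG (ETS) or CACCTG (E proteins).
Cd3g, chr9:44980432-44980681, minus strand: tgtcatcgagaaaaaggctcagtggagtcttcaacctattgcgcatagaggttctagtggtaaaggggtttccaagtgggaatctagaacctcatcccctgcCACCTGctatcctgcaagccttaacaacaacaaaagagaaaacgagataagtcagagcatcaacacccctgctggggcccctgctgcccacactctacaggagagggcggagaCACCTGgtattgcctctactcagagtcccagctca
Cd3d, chr9:44981536-44981785, plus strand: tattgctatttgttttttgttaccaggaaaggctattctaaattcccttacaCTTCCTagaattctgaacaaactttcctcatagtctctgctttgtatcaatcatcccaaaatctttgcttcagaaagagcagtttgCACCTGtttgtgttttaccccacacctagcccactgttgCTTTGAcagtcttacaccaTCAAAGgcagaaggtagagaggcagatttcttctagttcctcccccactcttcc
Cd3e, chr9:45009612-45009861, minus strand: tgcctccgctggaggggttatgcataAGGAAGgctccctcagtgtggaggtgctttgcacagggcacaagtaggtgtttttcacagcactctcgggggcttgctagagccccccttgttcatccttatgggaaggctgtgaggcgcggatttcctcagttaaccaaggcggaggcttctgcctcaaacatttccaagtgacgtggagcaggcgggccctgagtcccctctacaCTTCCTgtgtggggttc
Cd8a, chr6:71373177-71373426, plus strand: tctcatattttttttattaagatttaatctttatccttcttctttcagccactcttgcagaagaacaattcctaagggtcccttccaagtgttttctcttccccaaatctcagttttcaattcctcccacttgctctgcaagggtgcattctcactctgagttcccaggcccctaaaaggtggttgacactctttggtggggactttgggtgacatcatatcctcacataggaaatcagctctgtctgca
Cd3d held 2 copies of CTTTGA, 1 of AGGAAG and 1 of CACCTG. Cd3e held 2 copies of AGGAAG and Cd3g 2 of CACCTG, while none of the 4 motifs was in the window of Cd8a. No matches overlapped each other. These short motifs are common: of 32851 windows of this length, 14.0% held TGTGGT, 13.8% CTTTGA, 29.5% AGGAAG and 17.2% CACCTG. A match is a description of the letters and not a measured binding site.

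Per length, Cd3g had the highest level of the 10, at a mean of 12.8 TPM over the 32 libraries, followed by Cd3d at 8.48, Lck at 7.83 and Cd3e at 5.53 TPM. The coreceptors were lower, with Cd8b1 at 3.94, Cd4 at 2.78 and Cd8a at 2.43 TPM. Cd5 (1.98 TPM), Cd28 (1.77 TPM) and Foxp3 (0.295 TPM) were lowest. The counts behind these levels were modest. The median count per library ran from 31.5 for Cd5 to 135 for Lck, and Foxp3 had a median of 9.5 counts with a range of 1 to 21. Counting error alone gives Foxp3 a coefficient of variation of 33.1%, and its spread within groups was 63.0%. For Lck the same figures were 8.49% and 23.2%. Every one of the 10 genes spread more within its groups than counting error gives.

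Ordered by group mean, neighbouring groups overlapped in all 7 steps for 9 of the 10 genes. Cd4 was the exception, with 6 of 7 steps: its 3 male air libraries lay above all libraries of the next group, sham at 3 months. The T cell label itself rested on more than these genes. The other T cell markers measured, among them the receptor chain genes Trac, Trbc1 and Trbc2 and the signalling genes Lat and Cd247, were above 0 in every library. Of 7 thymocyte markers, the recombinase genes Rag2 and Rag1 and the pre-receptor chain gene Ptcra were at 0 in 31, 27 and 26 of the 32 libraries. Arpp21, Dntt and Tcrg-V4 were at 0 in 19, 16 and 10 libraries, and Cd1d1, which other cells also express, was above 0 in every library at a mean of 10.9 CPM. Of 8 lymph node and lymphoid stroma markers, Ccl21b, Glycam1 and Madcam1 were at 0 in 28, 25 and 24 libraries, and Ccl19 in 1. The other 4 were above 0 in every library, with means of 68.8 CPM for Ccl21a, 54.9 for Enpp2, 44.8 for Chst4 and 12.6 for Cxcl13.

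**Figure D1:**
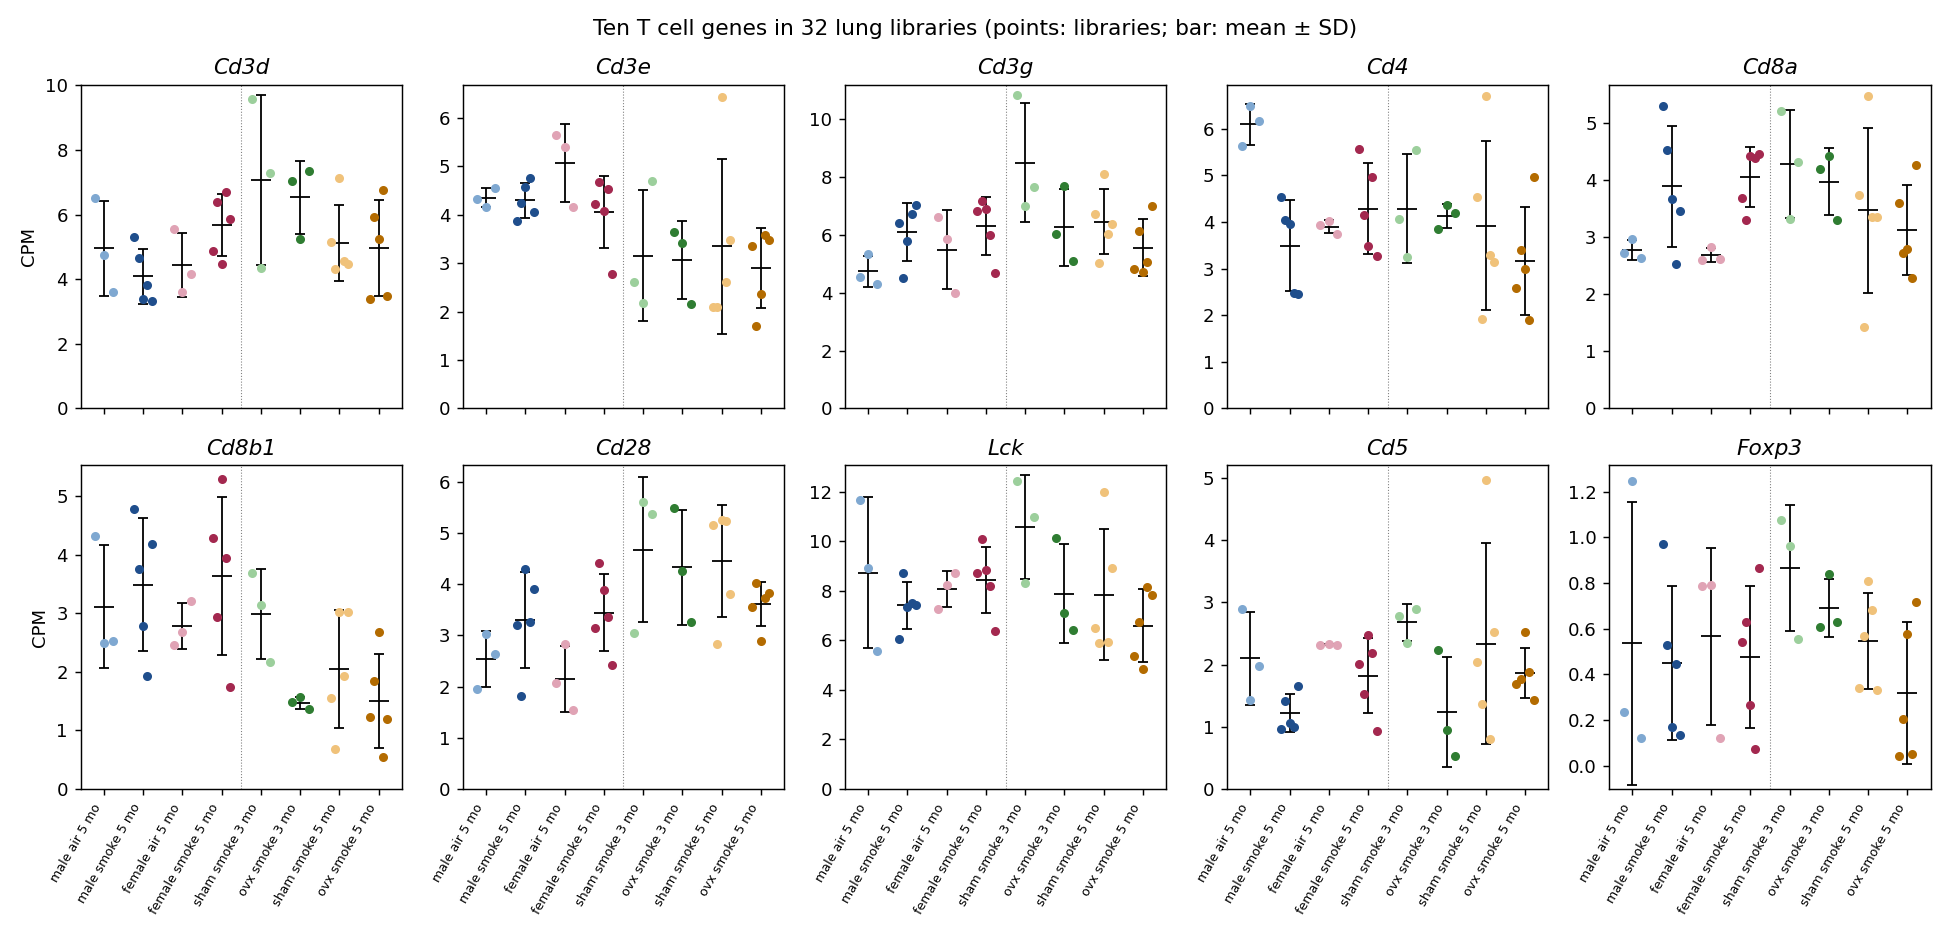
Level of each gene in CPM (vertical axes, each from its own scale) in the 8 groups (horizontal axis), with the first experiment left of the dotted line. Points are libraries and bars the mean ± SD. Male air stands above male smoke for Cd4, from 5.62 to 6.48 against 2.45 to 4.55 CPM.

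The effect of smoke on the T cell genes of males was measured between 3 air and 5 smoke libraries. Cd4, the coreceptor of helper and regulatory T cells, fell. It was at 5.62, 6.48 and 6.18 CPM in the air libraries and at 4.55, 4.05, 3.95, 2.47 and 2.45 CPM in the smoke libraries. Every smoke library was below every air library. The fall was 1.74-fold (log2 fold change −0.80, SE 0.24, adjusted p = 0.0339 by edgeR's quasi-likelihood test with Benjamini-Hochberg adjustment over all genes). A gene was called when this adjusted p was under 0.05. Cd4 was the only one of the 10 called, in a comparison in which 10.3% of all 16361 genes tested were called and 5.33% were called lower, so the count of 1 in 10 is near the background. Groups that did not overlap, with smoke lower, were found for 8.39% of all genes.

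The call of Cd4 depended on the fit and on single libraries. It was lost with the replicate number as a block (log2 fold change −0.66, edgeR adjusted p = 0.0992), with only the 2 male groups in the fit (edgeR adjusted p = 0.0619), with all 32 libraries in 1 fit (edgeR adjusted p = 0.0762) and by limma-trend on log2(TPM + 1) (adjusted p = 0.0560). DESeq2 kept it (adjusted p = 0.0148). With air library 2 or 3 of the males left out, the edgeR adjusted p was 0.0931 and 0.0989, and with smoke library 4 or 5 left out it was 0.0687 and 0.0801, while the log2 fold change stayed between −0.91 and −0.70 when any 1 library was left out. Alb, the albumin gene of liver, exceeded 100 CPM in 2 libraries of this experiment. Leaving these out, a choice made after seeing the data, gave −0.89 with an adjusted p of 0.0542 by edgeR.

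In mice, Cd4 is also transcribed by some dendritic cells, so their markers stand beside it. The summed level of 6 plasmacytoid dendritic cell markers was 297 to 340 CPM in male air and 232 to 264 CPM in male smoke, ranges that do not overlap, and 2 of the 6 were called lower. None of the 6 was at 0 in more than 1 library. Nearly all of that sum came from Tcf4 (mean 150 CPM over the 32 libraries) and Bst2 (79.9 CPM), which other lung cells also express, while the defining gene Siglech averaged 3.19 CPM. The sum of 7 macrophage and monocyte markers was 606 to 832 CPM in male air and 626 to 888 CPM in male smoke. Its largest part was Chil3, at a mean of 494 CPM over the 32 libraries. Of the 7, Ly6c2, Ccr2 and Csf1r were called higher in male smoke, with log2 fold changes of 1.04, 0.46 and 0.39. The others were not called. The part of these cell types in the Cd4 result was not tested.

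The other 9 genes were not called in males. Cd8a, the chain shared by all CD8 coreceptors, was at 2.72, 2.97 and 2.64 CPM in air and at 5.29, 4.52, 3.67, 2.52 and 3.45 CPM in smoke. Of the 5 smoke libraries, 4 were above all air libraries and 1 was below them. The log2 fold change was 0.49 (SE 0.25, edgeR adjusted p = 0.243). Cd5, at 2.90, 1.43 and 1.98 CPM in air and 0.97, 1.41, 1.06, 0.99 and 1.66 CPM in smoke, had a log2 fold change of −0.78 (SE 0.35, adjusted p = 0.172 by edgeR). The CD3 chains did not move together: log2 fold changes were −0.27 for Cd3d, −0.01 for Cd3e and 0.37 for Cd3g, each with a 95% interval that includes 0. Lck was at −0.23, Cd28 at 0.38, Cd8b1 at 0.16 and Foxp3 at −0.27. The median over the 10 genes was −0.12, beside 0.01 over all genes tested.

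In females the same comparison called none of the 10 genes, where 7.7% of all genes were called. At an unadjusted p under 0.05, 2 passed, against 21.3% of all genes, and DESeq2 called 0 as well. These 2 were Cd8a and Cd28. Cd8a was at 2.60, 2.83 and 2.61 CPM in air and at 3.68, 3.31, 4.41, 4.38 and 4.45 CPM in smoke. All smoke libraries were above all air libraries, as they were in the same direction for 8.34% of genes. The log2 fold change was 0.60 (SE 0.25, adjusted p = 0.153 by edgeR). Cd28, the receptor for B7 molecules, was at 2.06, 2.83 and 1.54 CPM in air and 3.14, 4.41, 3.88, 3.36 and 2.41 CPM in smoke. Its log2 fold change was 0.68 (SE 0.30, adjusted p = 0.190 by edgeR), and the groups overlapped. Cd4 was at 3.93, 4.01 and 3.74 CPM in air and between 3.28 and 5.57 CPM in smoke, with a log2 fold change of 0.15 and a 95% interval from −0.36 to 0.65. The median over the 10 genes was 0.18, beside −0.01 over all genes.

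**Figure D2:**
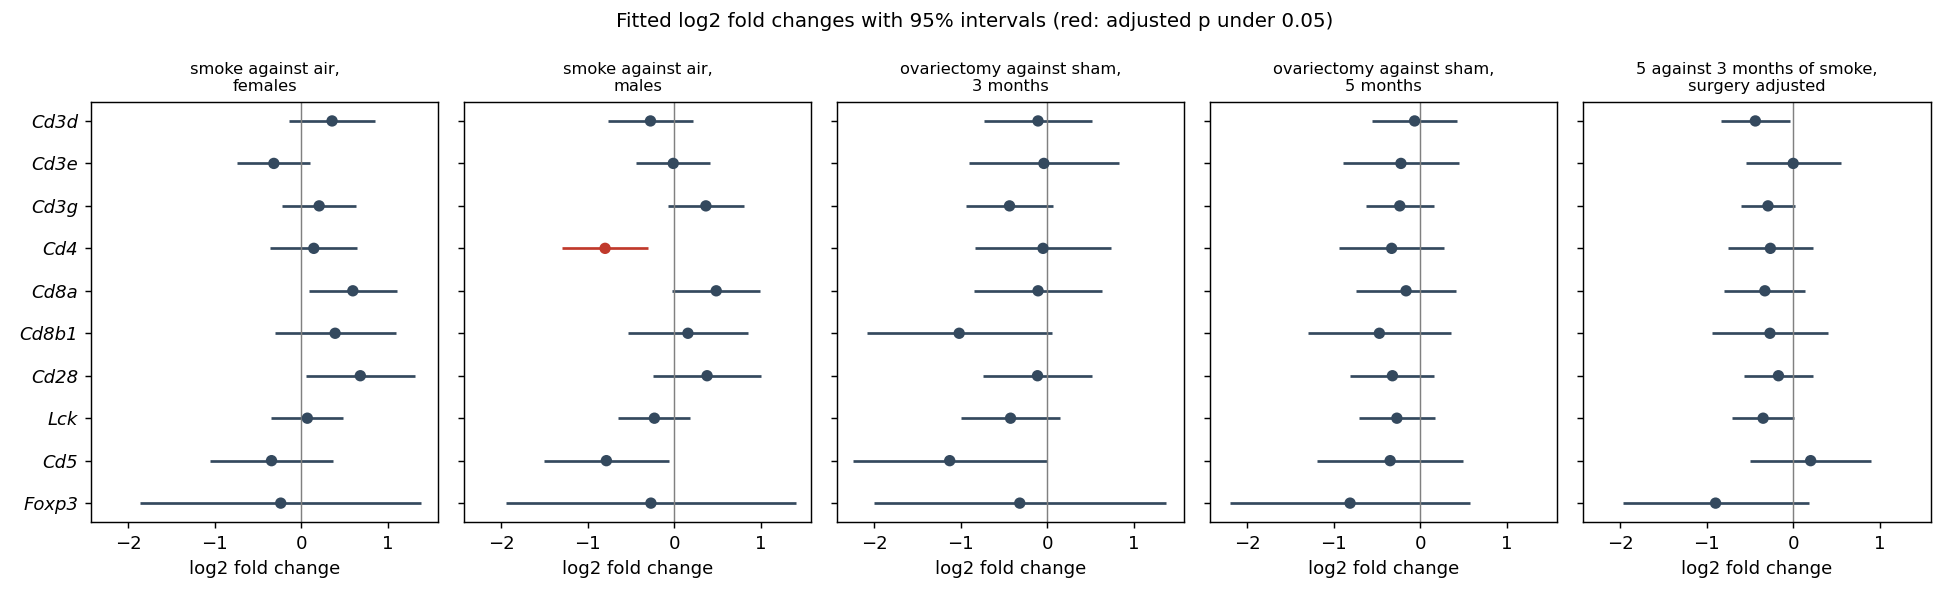
Fitted log2 fold change (horizontal axis) of each gene (vertical axis) in 5 comparisons, with 95% intervals and called genes in red. Cd4 in males, at −0.80, is the only one called, and all 10 values lie below 0 in both comparisons of ovariectomy with sham.

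Cd8a had like values in both sexes. The difference of its smoke effects, females minus males, was 0.11 on the log2 scale with a 95% interval from −0.60 to 0.82. When smoke was compared with air over the average of both sexes, a comparison added after seeing the data, Cd8a rose 1.46-fold (log2 fold change 0.54, SE 0.17, adjusted p = 0.0313 by edgeR). It was the only one of the 10 called, where 19% of all genes were called and 10% were called higher. Its partner chain Cd8b1, which marks conventional CD8 T cells, had a log2 fold change of 0.28 with a 95% interval from −0.22 to 0.77. In mice Cd8a is also transcribed by some dendritic cells. The summed level of 6 markers of type 1 conventional dendritic cells was 395 to 491 CPM over the air libraries of both sexes and 427 to 534 CPM over the smoke libraries, and 0 of the 6 were called in that comparison. Most of that sum came from 1 gene, Cadm1, at a mean of 411 CPM over the 32 libraries. Clec9a and Xcr1 averaged 20.3 and 2.94 CPM, so the sum says little about them. The summed level of 8 NK cell markers averaged 26.2 CPM in male air (19.8 to 33.4) and 36.8 in male smoke (27.2 to 44.9). In females it averaged 29.2 CPM in air (26.3 to 32.4) and 38.5 in smoke (27.2 to 44.1). These ranges overlapped in both sexes, and the largest part was Gzma, at a mean of 19.1 CPM over the 32 libraries. Red cell markers summed to 2280 to 3207 CPM in female air and 6270 to 14732 CPM in female smoke. In males they summed to 3837 to 11837 CPM in air and 9171 to 11891 CPM in smoke. B cell markers summed to 63.6 to 129 CPM in female air and 115 to 177 CPM in female smoke. In males the B cell sums were 99.0 to 158 CPM in air and 144 to 206 CPM in smoke. The part of these cell types in the Cd8a result was not tested.

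For Cd4 the fitted difference between the sexes' smoke effects was 0.94 on the log2 scale (SE 0.34), and it was not called (adjusted p = 0.784 by edgeR). None of the 10 genes was called, where 0.00611% of all genes were, and DESeq2 called 0. At an unadjusted p under 0.05, 1 member passed, which was Cd4, against 5.75% of all genes. In air, every female library was below every male library in Cd4, as was so for 7.82% of all genes, with a log2 fold change of −0.65 (SE 0.27, adjusted p = 0.452 by edgeR). None of the 10 genes was called between the sexes in air, where 0.177% of genes were called, or in smoke, where 0.189% were. By DESeq2 the count was 0 in both, and at an unadjusted p under 0.05 it was 1 in each, against 9.27% and 7.74% of all genes. In smoke, Cd3d had the smallest p, with a log2 fold change of 0.47 (SE 0.21, adjusted p = 0.616 by edgeR). In smoke 9 of the 10 genes were fitted higher in females, as were 48.8% of all genes.

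The ratio of Cd4 to Cd8a within a library, in TPM, is given as a description, since it was chosen after the values were seen. It was 2.08, 2.20 and 2.36 in male air and 0.865, 0.902, 1.08, 0.987 and 0.717 in male smoke. In female air it was 1.52, 1.43 and 1.44, and in female smoke 1.53, 1.26, 0.793, 1.14 and 0.741. The male groups did not overlap, and the female groups did through 1 smoke library. In the second experiment, where all libraries were from smoke, the ratio lay between 0.723 and 1.37.

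**Figure D3:**
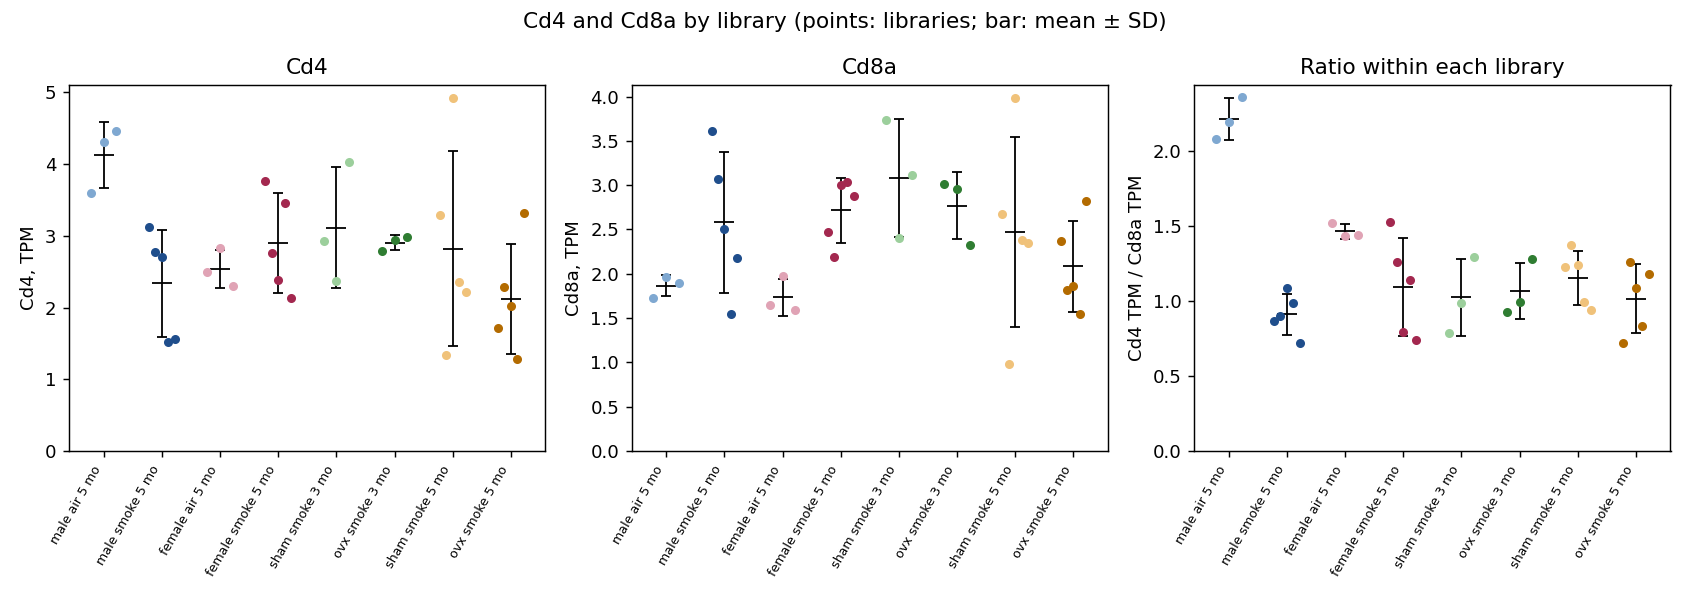
Cd4 and Cd8a in TPM and their ratio within each library (vertical axes, from 0) in the 8 groups (horizontal axis). Points are libraries and bars the mean ± SD. The ratio is 2.08 to 2.36 in male air and at most 1.53 in every other library.

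Removal of the ovaries was compared with sham operation in mice that all breathed smoke. At 3 months none of the 10 genes was called, and 0% of all 16874 genes were. At an unadjusted p under 0.05, 1 member passed, against 9.29% of all genes, and DESeq2 called 0. That gene was Cd5, at 2.79, 2.35 and 2.90 CPM in sham and 2.23, 0.95 and 0.52 CPM in ovariectomized mice. The groups did not overlap, and the log2 fold change was −1.13 (SE 0.54, adjusted p = 0.535 by edgeR). Cd8b1 did not overlap either, with 3.68, 3.13 and 2.16 CPM in sham against 1.49, 1.56 and 1.36 CPM after ovariectomy (log2 fold change −1.02, SE 0.52, adjusted p = 0.555 by edgeR). Its partner Cd8a was at 5.20, 3.31 and 4.32 CPM in sham and 4.19, 4.41 and 3.30 CPM after ovariectomy, groups that overlap, with a log2 fold change of −0.11. Groups did not overlap in the lower direction for 8.02% of all genes.

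At 5 months none of the 10 genes was called, where 1.36% of all genes were, and 0 passed at an unadjusted p under 0.05, where 15.5% did. DESeq2 also called 0. The values ran from −0.07 for Cd3d to −0.81 for Foxp3, and the groups of every member overlapped, where 3.93% of all genes had groups that did not. Cd8b1 was again among the lowest, at −0.47 with a 95% interval from −1.30 to 0.35. At both times all 10 fitted values were below 0, as were 49.4% of all genes at 3 months and 52.4% at 5 months. The medians over the 10 genes were −0.22 and −0.30, beside 0.00 and −0.01 over all genes. These directions depended on single libraries at both times. At 3 months, leaving out 1 library left 7 to 10 of the 10 values below 0, and Cd3d, Cd3e, Cd4, Cd8a and Cd28 reached 0.18, 0.36, 0.18, 0.06 and 0.06 at their highest. The fewest were below 0 without ovariectomized library 3 (7), and 8 were without sham library 1 or sham library 3. At 5 months, leaving out 1 library left 6 to 10 of the 10 below 0. Sham library 3 had the highest Cd3e (6.43 CPM), Cd4 (6.70 CPM), Lck (12.0 CPM) and Cd5 (4.97 CPM) of its group, and without it the log2 fold changes of Cd3e, Cd5, Cd3d and Cd8a were 0.16, 0.13, 0.09 and 0.06, with a median of −0.05 over the 10 genes.

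Liver genes stood high in 5 libraries of this experiment. The summed level of 3 liver markers was 1.55, 582 and 1261 CPM in the ovariectomized libraries at 3 months and 0.888 to 1.93 CPM in sham. At 5 months it was 629, 569, 3.35, 1.99 and 1.21 CPM in sham and 1.82, 18.2, 0.946, 1.54 and 1224 CPM after ovariectomy. Without the 5 libraries over 100 CPM of Alb, a choice made after seeing the data that leaves 1 ovariectomized library at 3 months, 8 of the 10 values were below 0 at 3 months with a median of −0.10, and 10 were at 5 months with a median of −0.53. The part of the liver genes in these values was otherwise not tested.

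The difference between the effects of surgery at the 2 times was called for none of the 10 genes and for 0% of all genes. At an unadjusted p under 0.05 the count of members was 0 there, against 5% of genes, and by DESeq2 it was 0.

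Over both operations, 5 months of smoke was compared with 3 months. With no air group at either time, the length of smoke cannot be told apart from other differences between these times. None of the 10 genes was called, where 0.13% of all genes were, and by DESeq2 the count was 0. At an unadjusted p under 0.05 it was 1, against 13.4% of genes. Cd3d had the smallest p, with a log2 fold change of −0.44 (SE 0.19, adjusted p = 0.313 by edgeR). It was at 9.57, 4.33 and 7.28 CPM in sham and 7.03, 5.25 and 7.34 CPM in ovariectomized mice at 3 months. At 5 months it ran from 4.31 to 7.13 CPM in sham and from 3.39 to 6.76 CPM after ovariectomy, so the times overlapped. The summed level of 11 T cell markers, which include the CD3 genes, was 54.4 to 76.6 CPM in sham at 3 months. In sham at 5 months it was 38.1 to 73.9 CPM. After ovariectomy it was 44.5 to 65.4 CPM at 3 months and 36.9 to 51.8 CPM at 5 months. These libraries are the same as those of the surgery comparisons. Of the 10 fitted values 9 were below 0, as were 50.8% of all genes.

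Other genes of T cell biology were set beside these from lists chosen by role. Their counts stand beside the 7.7% of all genes called with smoke in females and the 10.3% in males. Among 6 receptor constant chain genes tested, none was called with smoke in either sex. The largest values were those of the gamma chains. Tcrg-C2 had log2 fold changes of 1.55 in females (adjusted p = 0.0736 by edgeR) and 1.46 in males (adjusted p = 0.0773 by edgeR), with groups that did not overlap in either sex. Tcrg-C1 was at 1.47 in males (adjusted p = 0.0737 by edgeR), again without overlap, and at −0.40 in females (adjusted p = 0.697 by edgeR). Trac, the alpha chain, had log2 fold changes of −0.53 in females (adjusted p = 0.369 by edgeR) and −0.54 in males (adjusted p = 0.346 by edgeR). Reads of Trbc1 and Trbc2, and of Tcrg-C1 and Tcrg-C2, which are near-identical copies, may be split between them, so their values are uncertain. Of 18 genes of receptor signalling, 1 was called in each sex. This was the kinase gene Fyn, 1.25-fold lower in females and 1.26-fold lower in males. None of 12 genes of costimulation and checkpoints was called in either sex.

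Of 13 lineage transcription factors, 1 rose and 1 fell in females, and among those reported here 2 fell in males. Tox, a factor of T cell exhaustion and development, rose 2.41-fold in females (adjusted p = 0.0412 by edgeR) and had a log2 fold change of 0.76 in males (adjusted p = 0.241 by edgeR). Lef1, which partners TCF1 in naive T cells and is also active in other lung cells, fell 2.04-fold in females and 1.80-fold in males. Bcl6, known as the factor of follicular helper cells, fell 1.32-fold in males and was not called in females. The difference of its smoke effects, females minus males, was 0.31 on the log2 scale and was not called (adjusted p = 0.854 by edgeR). Which lung cells gave the fall of Bcl6 was not tested. Of 6 regulatory T cell genes tested, 1 was called in each sex: Ikzf4, which encodes EOS, a partner of FOXP3, rose in both, by 2.12-fold in females and by 1.65-fold in males. Ctla4, an inhibitory receptor of these cells, had log2 fold changes of 0.66 and 0.23 that were not called. The rest of the list did not rise as a set in males. Log2 fold changes there were −0.49 for Il2ra, −0.44 for Lrrc32, −0.37 for Tnfrsf18 and 0.02 for Ikzf2, none of them called. Foxp3 itself was at −0.24 in females and −0.27 in males, also not called.

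Of 9 naive and homing genes, Il7r, the interleukin 7 receptor, rose in females (log2 fold change 0.58). In males its log2 fold change was 0.46, which was not called (adjusted p = 0.0596 by edgeR). S1pr1, the receptor that guides exit from lymphoid tissue, fell 1.45-fold in females and 1.86-fold in males. Klf2, which drives S1pr1 transcription, fell 1.94-fold in males. For Klf2 the difference of smoke effects, females minus males, was 0.86 on the log2 scale and was not called (adjusted p = 0.784 by edgeR). S1pr1, Klf2 and Fyn are also expressed by endothelium and other lung cells. The 4 endothelial markers summed to 1358 to 1872 CPM in air and 879 to 1232 CPM in smoke over both sexes, and their part in these falls was not tested. Of 8 genes for T cell chemoattractants and survival cytokines, Il7 rose 1.83-fold in males and none was called in females. After ovariectomy, none of the genes in these 7 lists was called at 3 or 5 months, where 0% and 1.36% of all genes were called.

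**Figure D4:**
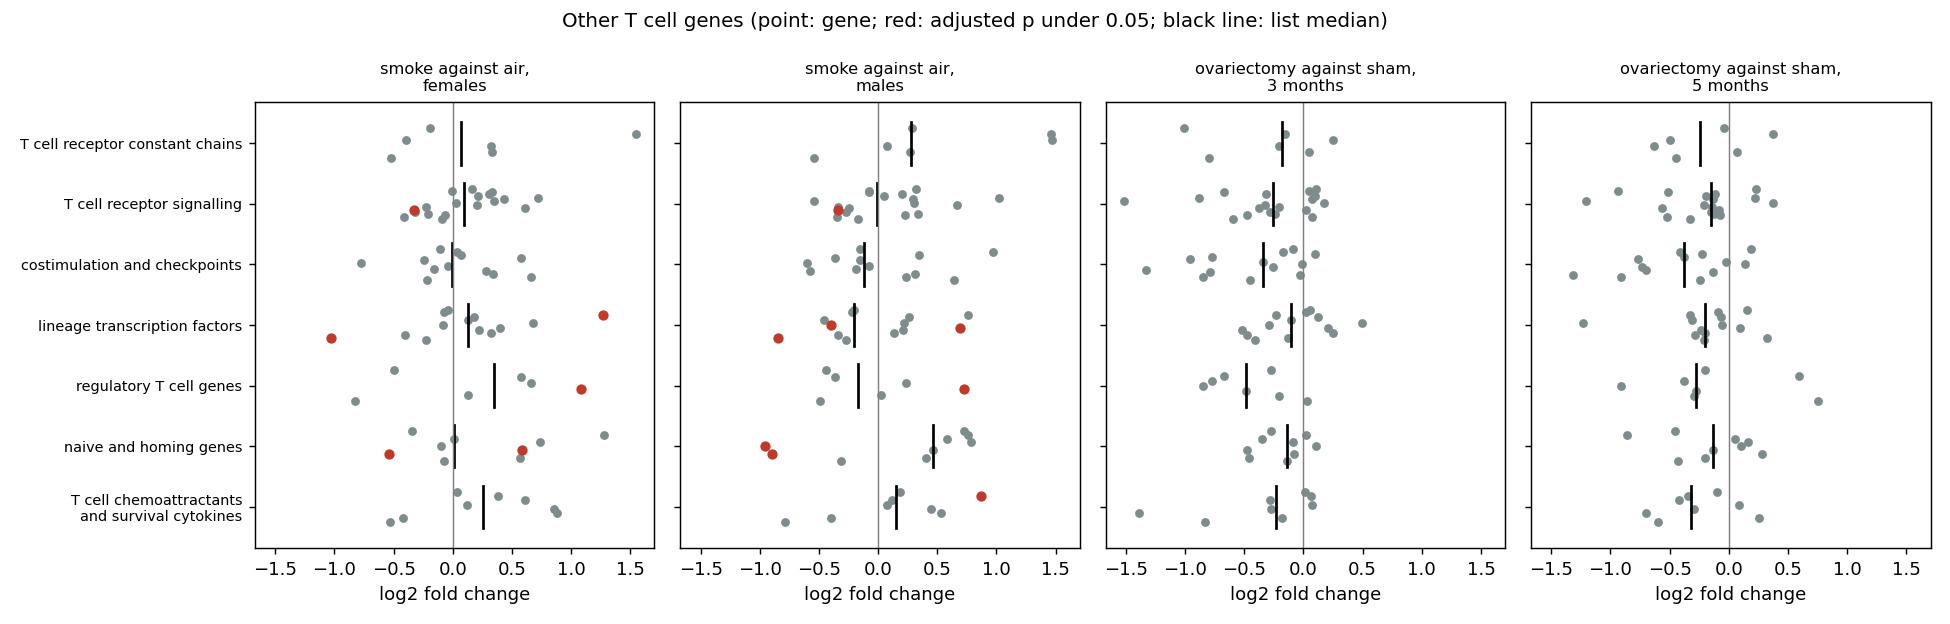
Fitted log2 fold change (horizontal axis) of genes in 7 lists of T cell biology (vertical axis) in 4 comparisons. Each point is a gene, red when called, and the black line is the list's median. Red points appear in the smoke comparisons, where 7.7% (females) and 10.3% (males) of all genes were called. None appear in the comparisons of ovariectomy with sham, where 0% (3 months) and 1.36% (5 months) were.

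Across the 32 libraries the 10 genes were only loosely related to each other. After removing each experiment's mean, Pearson's r over the 45 pairs had a median of 0.27 and was above 0 in 41 pairs. It was highest for Lck and Cd5 (0.56) and for Cd8a and Cd8b1 (0.55), and lowest for Cd5 and Foxp3 (−0.14). The neighbours Cd3g and Cd3d had an r of 0.25, and Cd3d and Cd3e of 0.07. All genes of a library share its depth and tissue piece, and at counts this low counting error weakens every r.

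**Figure D5:**
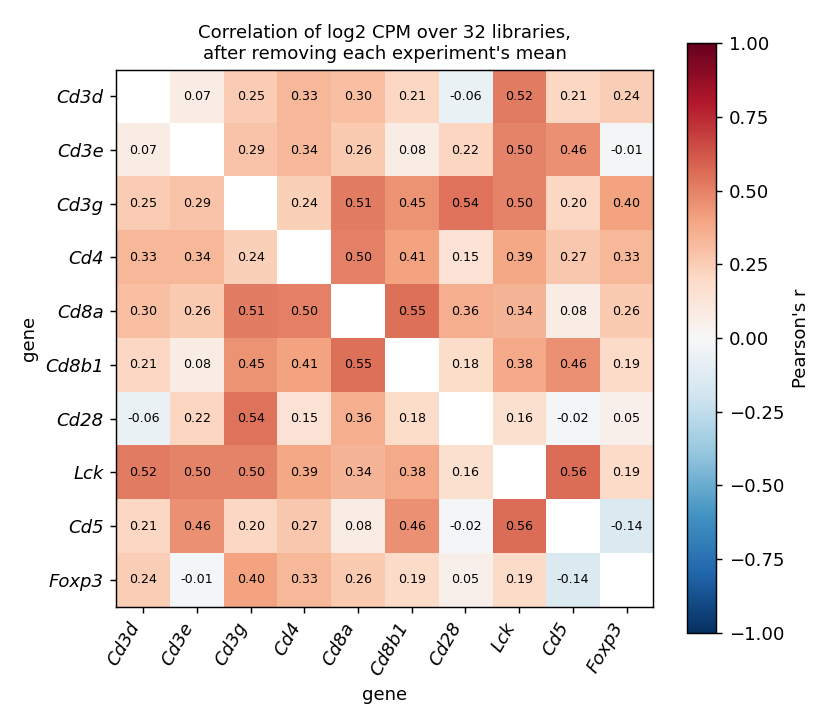
Pearson's r between each pair of the 10 genes over 32 libraries, on log2 CPM after removing each experiment's mean (colour from −1 to 1). Values run from −0.14 for Cd5 and Foxp3 to 0.56 for Lck and Cd5.

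Among 12636 other genes, those most like the mean of the 10 were Ms4a4b (r = 0.75 over 32 libraries), a membrane protein of T and NK cells, and Il21r (0.75), the interleukin 21 receptor. Slfn2 (0.73), Jak3 (0.69), the kinase of the common gamma chain receptors, and Ccl5 (0.69), a chemokine of activated T and NK cells, came next. The others among the 10 most alike were Pydc4, Rasal3, Gga3, Serpina3g and Tcf7, the gene of TCF1, with r from 0.66 to 0.68. These correlations are descriptions, and all genes of a library share its depth and tissue composition.

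Some counts carry an uncertainty of annotation, since exons overlap those of other genes. The labels do not state whether counting used strand, and for a gene on the same strand this would not separate the reads. Foxp3 shares 590 exon bases with Ccdc22 on the opposite strand, 853 with Flicr on the same strand and 373 with Gm36995. Cd3e shares 135 with the antisense gene Gm48719, and Lck 25 with the microRNA gene Mir8119 on the same strand. Foxp3 is the gene that this affects most, and its level is also the lowest. In the male comparison its log2 fold change was −0.27 with a 95% interval from −1.94 to 1.40, and without male air library 2, which held 21 of its counts, it was 1.24.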

How the data were processed

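Gene symbols selected the 10 genes. The members and all gene lists were chosen with earlier results of these data known. Whole-number raw counts per gene were deposited by the authors, with a second table of normalized values in TPM deposited beside it. The TPM unit was settled from the values: 100% equal the count over gene length, brought to 1 common sum per library, within 1e-04. The submitters' processing notes name FastQC, GRCm38 and mm10; the aligner and counter were not given in the sources used here. The labels name Trizol and the NEBNext Ultra 2 kit.

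Each experiment's 4 groups were fitted in R 4.3.3 with edgeR 4.0.16 (filterByExpr, TMM, robust quasi-likelihood F test, Benjamini-Hochberg adjustment over all genes, calls at 0.05). CPM use TMM factors over all 32 libraries. The code was tested on simulated data. Genes named outside the 10 are called genes of the lists (1 such gene is not reported here), a few others picked after their values were seen, and the 10 with the highest r among genes averaging 1 or more in log2 CPM (prior count 2). Replicate numbers were not treated as pairs. Depth, 13790052 to 24497332 counts per library, and group size set the precision. Alternatives were RLE factors, other filters, the replicate block, other sets of libraries, limma-trend (limma 3.58.1, log2(TPM + 1)), DESeq2 1.42.0 and leaving out each library. Plots used matplotlib 3.10.9.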

Additional observations from a re-analysis of the deposited data

How the results depend on the processing

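In males, the count of members called with smoke (1, Cd4) was 0 with the replicate block, with limma-trend on log2(TPM + 1), without the libraries over 100 CPM of Alb, with only the 2 groups compared and with all 32 libraries in 1 fit, and 0 to 1 when 1 library was left out. Cd4 had an adjusted p of 0.0992 (edgeR, log2 fold change −0.66) under the block, 0.0560 by limma-trend, 0.0619 with 2 groups and 0.0762 with 32 libraries. DESeq2 (0.0148), RLE factors, no filter and the strict filter kept the call. The average of both sexes is a different comparison that was set beside the result of each sex. Its count was 1 (Cd8a), beside 0 in females, and Cd4 had an adjusted p of 0.199 by edgeR there. Leaving out the libraries over 100 CPM of Alb and averaging the sexes were chosen after seeing the data. Of 1748 member values under alternatives, 1633 kept their direction and their side of the threshold, 10 lost and 2 gained a call, and 103 changed sign, 79 of them when 1 library was left out. The 2 gained calls are the same Cd8a value of the average of both sexes, set beside each sex. None of the 103 was called, either as reported or under its alternative. Whether replicate numbers pair the libraries was not settled: same-numbered libraries correlated between −0.43 and 0.33 in their deviations from group means. Under the block no other comparison gained or lost a call. Counts near 10 per library limit Foxp3.

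The values that changed sign are log2 fold changes of genes that were not called. Under the replicate block, such values were Foxp3 0.0029 for smoke against air in females, Cd3e 0.032 and Foxp3 0.096 for smoke against air in males, Foxp3 −0.093 for the sex difference in smoke effects, Cd3e 0.093 for ovariectomy at 3 months. By limma-trend, such values were Foxp3 −0.016 for the sex difference in smoke effects, Cd3d −0.048 for the time difference in surgery effects. Without the libraries high in Alb, such values were Foxp3 0.062 for smoke against air in females, Lck 0.0052 for smoke against air in males, Cd8b1 −0.083 for the sex difference in smoke effects, Cd3d 0.21, Cd8b1 0.16, Lck 0.13 and Foxp3 −0.57 for females against males in air, Cd3e 0.22 and Cd28 0.23 for ovariectomy at 3 months, Cd3d −0.035, Lck −0.47 and Cd5 −0.25 for the time difference in surgery effects, Cd5 −0.077 for 5 against 3 months. With all 32 libraries, such values were Cd3e 0.0018 for 5 against 3 months. The average of both sexes is a different comparison, not a second estimate for 1 sex. Its values differed in sign from those of females for Cd4 (−0.33) and Lck (−0.079). For Cd3d (0.042) the sign differed from that of males. Leaving out 1 library in turn gave these lowest and highest values where the sign changed. Smoke against air in males gave Lck from −0.47 to 0.0048, Cd8b1 from −0.0099 to 0.43, Foxp3 from −0.74 to 1.24 and Cd3e from −0.074 to 0.020. The sex difference in smoke effects gave Cd8b1 from −0.058 to 0.41, Foxp3 from −1.49 to 0.51 and Cd3g from −0.32 to 0.0047. Females against males in air gave Cd3d from −0.36 to 0.079, Cd8b1 from −0.31 to 0.14, Lck from −0.35 to 0.15, Foxp3 from −0.37 to 1.63 and Cd5 from −0.082 to 0.43. Smoke against air in females gave Lck from −0.0013 to 0.16 and Foxp3 from −0.70 to 0.063. Females against males in smoke gave Cd3g from −0.036 to 0.14, Cd28 from −0.091 to 0.18, Cd8b1 from −0.10 to 0.24, Foxp3 from −0.17 to 0.58, Cd8a from −0.054 to 0.20 and Cd3e from −0.14 to 0.026. Ovariectomy at 3 months gave Cd3d from −0.36 to 0.18, Cd8a from −0.26 to 0.059, Cd28 from −0.34 to 0.057, Cd3e from −0.25 to 0.36 and Cd4 from −0.21 to 0.18. The time difference in surgery effects gave Cd3d from −0.24 to 0.30, Cd3g from −0.016 to 0.37, Cd28 from −0.38 to 0.021, Cd3e from −0.59 to 0.20, Cd8a from −0.25 to 0.17 and Cd4 from −0.51 to 0.0030. 5 against 3 months gave Cd3e from −0.19 to 0.20 and Cd5 from −0.038 to 0.56. Ovariectomy at 5 months gave Cd3d from −0.21 to 0.086, Cd3e from −0.35 to 0.16, Cd8a from −0.36 to 0.064 and Cd5 from −0.57 to 0.13.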
